A study of Mus musculus with 13 samples.

Results

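Astrocytes are the glial cells whose endfeet wrap the brain's vessels. Here 33 genes named as astrocyte markers or reactive astrocyte genes were followed in bulk RNA from the neurovasculature of mice given bacterial lipopolysaccharide (LPS). The RNA came from all cells of the preparation, so a change in a gene cannot be assigned to astrocytes. The 33 were chosen by name, as symbols matched to Ensembl identifiers, out of 47643 genes listed in the count table. All 33 were found and had enough counts to be tested, among 17285 tested genes. They fall into 14 reactive genes, which are known to be raised in astrocytes after injury or inflammation, 8 endfoot and junction genes, and 11 genes of astrocyte identity and metabolism. After LPS, 6 of the 14 reactive genes were at least 2-fold higher than in sham mice by edgeR's test, beside 4.68% of all tested genes. Of the other 19 genes *Gjb6*, which encodes the gap junction protein connexin 30, passed, and *Aldh1l1* stood just under 2-fold. The monoacylglycerol lipase inhibitor CPD-4645 gave no change of 2-fold in the 33 genes against LPS alone, where 1.7% of all tested genes passed upward and 4.19% downward. *Amigo2*, *Sox9*, *S1pr3* and *Dtna* were lower than under LPS alone by adjusted p alone, 4 of the 33 genes beside 16.4% of all tested genes.

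The mice were male CD1 animals of 8 to 10 weeks in 3 groups. Sham-vehicle mice (n = 4) received no LPS, LPS-vehicle mice (n = 5) received 3 mg/kg of *Salmonella* LPS intraperitoneally at 0, 6 and 24 h, and LPS-CPD-4645 mice (n = 4) received the same LPS and 10 mg/kg of CPD-4645 subcutaneously, 30 min after each LPS dose according to the labels, although the study's text is not uniform on this delay. All groups were killed at 28 h, the series names PBS as the counterpart of LPS, and no group received CPD-4645 without LPS. Vessels were isolated from frozen brain and polyadenylated RNA was sequenced, 1 library for each mouse. Monoacylglycerol lipase breaks down the endocannabinoid 2-arachidonoylglycerol.

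In the healthy brain an astrocyte endfoot holds the water channel Aqp4 and the potassium channel Kir4.1 (*Kcnj10*) at the vessel wall, where the dystrophin-dystroglycan complex anchors them. Connexins join the endfeet to each other, and glutamate transporters and glutamine synthetase clear glutamate from the synapse. When astrocytes become reactive they build more intermediate filaments, first of all glial fibrillary acidic protein (*Gfap*), and switch on genes that are grouped by the insult under which they were described: pan-reactive genes, a set known from LPS (A1) and a set known from ischemia (A2). Of the 14 reactive genes here, *Amigo2* belongs to the A1 set, and *Slc10a6*, *Emp1*, *Cd109*, *Tm4sf1*, *Sphk1* and *B3gnt5* to the A2 set.

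The libraries held from 7813559 to 55133373 counts, with a median of 26989885. The lowest totals belonged to 1 mouse of each LPS group, LPS-vehicle mouse 3 and, next, LPS-CPD-4645 mouse 1. Mitochondrial genes took 6.47% to 12.7% of a sham-vehicle library, 4.84% to 7.05% of an LPS-vehicle library and 3.97% to 8.17% of an LPS-CPD-4645 library, the highest share being that of sham-vehicle mouse 4. The part of this difference in the values of the 33 genes was not tested. Levels of single genes are given as CPM, the count scaled to the size of the library, and levels set between genes as TPM, the same scale after division by the gene's length. Differences are log2 fold changes ± SE from edgeR's quasi-likelihood test over all 13 mice, with p-values adjusted over the 17285 genes by Benjamini and Hochberg. A gene passed the threshold at an adjusted p of at most 0.05 and a 2-fold change, which is the study's own limit.

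The tissue label was checked against cell type markers. The mean level of 6 neuronal markers was 1257 to 1306 TPM per gene in sham mice and that of 6 oligodendrocyte markers 429 to 538 TPM, while 8 endothelial markers averaged 32.4 to 60.6 TPM and 6 pericyte markers 26.6 to 44.4 TPM. The means of the neuronal and oligodendrocyte markers therefore exceeded those of the vessel markers. Such means depend on the markers chosen and are not shares of RNA by cell type. The highest endothelial marker, *Cldn5* at 176 TPM, stood above the lowest neuronal and oligodendrocyte markers, *Rbfox3* at 105 and *Mobp* at 48.4 TPM. By RT-qPCR the study found *Gfap*, *Pdgfrb* and *Pecam1* enriched in the preparation, with little *Syp* and *Aif1*. The 15 astrocyte markers, all of them among the 33 genes, averaged 76.9 to 107 TPM in sham mice, 113 to 154 TPM after LPS and 107 to 132 TPM after LPS with CPD-4645. In such bulk RNA a change in the number of astrocytes and a change in RNA per astrocyte cannot be told apart. Markers of other cells moved with the treatments. The summed level of 6 neutrophil markers was 1.23 to 5.39 CPM in sham mice, 59.1 to 268 CPM after LPS and 7.30 to 26.6 CPM under CPD-4645, and 6 of the 6 passed the threshold upward after LPS and downward under CPD-4645. For 6 monocyte and macrophage markers the sums were 15.8 to 19.9, 36.2 to 87.6 and 17.1 to 25.5 CPM, with 4 of the 5 tested higher after LPS and 1 lower under CPD-4645. For the 8 endothelial markers they were 289.9 to 479, 303 to 675 and 345 to 495 CPM, with 2 higher and 2 lower after LPS. Other lists were lower after LPS, with no overlap between the sums of the sham-vehicle and LPS-vehicle mice. Neuronal sums were 8219 to 9557 CPM in sham mice, 6869 to 7698 CPM after LPS and 7304 to 9593 CPM under CPD-4645, and 2 of the 6 markers were lower after LPS by adjusted p alone. Oligodendrocyte sums were 4450 to 6387, 3158 to 4180 and 3688 to 4762 CPM, with 4 of the 6 lower and 1 higher by adjusted p. Smooth muscle sums were 30.7 to 57.3, 14.0 to 23.4 and 22.5 to 31.9 CPM, with 3 of the 4 past the threshold downward, and erythrocyte sums 468 to 957, 239 to 460 and 325 to 705 CPM, with 4 of the 4 lower by adjusted p alone. Under CPD-4645 the summed level of 3 oligodendrocyte precursor markers was 160 to 174 CPM, below the 188 to 276 CPM of LPS alone and the 240 to 257 CPM of sham mice, and against LPS alone 1 of the 3 passed the threshold downward. Microglial sums under CPD-4645 were 141 to 188 CPM, against 161 to 285 CPM after LPS and 199 to 276 CPM in sham mice, with 5 of the 6 markers lower than in sham by adjusted p and 2 of them past the threshold. Against LPS alone 3 of the 6 were lower by adjusted p and 1 of them past the threshold, and after LPS 2 were lower than in sham, 1 of them past it. Choroid plexus sums were 327 to 699.7 CPM in sham mice, 157 to 359 CPM after LPS and 234 to 767 CPM under CPD-4645, with 2 of the 4 markers past the threshold downward after LPS and 1 upward under CPD-4645 against LPS alone. For 4 ependymal markers the sums were 11.5 to 12.9, 6.55 to 11.9 and 5.93 to 9.82 CPM, and for 6 pericyte markers 222 to 333, 170 to 285 and 196 to 263 CPM, with 1 marker of each list past the threshold downward under CPD-4645 against LPS alone. Of the 8 endothelial markers 3 were lower under CPD-4645 than under LPS alone by adjusted p alone. In that comparison 2 of the 6 neuronal and 2 of the 6 oligodendrocyte markers were higher by adjusted p alone. Of the oligodendrocyte markers 1 passed the threshold downward there. Beside these counts, 4.68% of all tested genes passed the threshold upward and 0.995% downward after LPS, and 11.1% and 8.86% by adjusted p alone. Under CPD-4645 the same shares were 1.7%, 4.19%, 14.1% and 16.4% against LPS alone and 6.11%, 4.98%, 19.5% and 19.3% against sham. No marker of these lists was at 0 in all 13 mice, and their part in the values of the 33 genes was not tested.

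**Figure D1:**
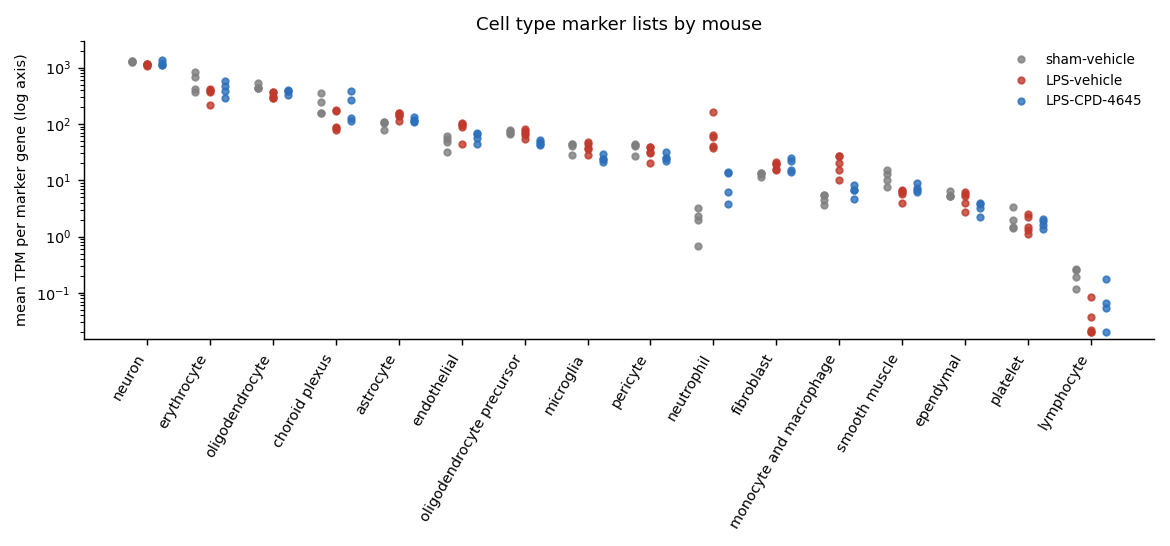
Mean TPM per marker gene (log axis) of 16 cell type lists, each point 1 mouse, in sham-vehicle (grey), LPS-vehicle (red) and LPS-CPD-4645 (blue) mice; values under 0.02 are drawn at 0.02. Neuronal markers stood highest, astrocyte markers lay between 76.9 and 154 TPM, and the neutrophil markers of every LPS-vehicle mouse lay above those of every other mouse.

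Per length, the most abundant of the 33 genes in sham mice were those of lipid carriage and metabolism. *Apoe*, an apolipoprotein that astrocytes secrete, averaged 1141 ± 290.4 TPM (SD, n = 4). *Glul*, glutamine synthetase, and *Clu*, the secreted chaperone clusterin, averaged 697 ± 123 and 697 ± 129 TPM and could not be ordered. *Aldoc*, the brain aldolase, followed at 302 ± 60.3 TPM. The neurotensin receptor *Ntsr2* and the glutamate transporters *Slc1a3* (GLAST) and *Slc1a2* (GLT-1) lay at 189 ± 35.9, 161 ± 14.7 and 146 ± 24.3 TPM, with overlapping ranges over the mice (142 to 222, 139 to 172 and 114 to 172 TPM). Ranks 24 to 33 in sham mice were all held by reactive genes. Among them were *Emp1* at 2.36 ± 0.735 TPM, *Cd109* at 0.485 ± 0.176 TPM and *Slc10a6* at 0.380 ± 0.761 TPM. The reactive genes *Gfap*, *Vim*, *Amigo2* and *Tm4sf1* ranked higher, at 13, 16, 18 and 21. After LPS *Gfap* moved from rank 13 to rank 5 of the 33, at 309 ± 68.8 TPM (n = 5), and *Aspg* from rank 26 to rank 17, at 44.0 ± 10.3 TPM. The ranks of *Apoe* and *Aldoc*, 1 and 4, were the same in all 3 groups.

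**Figure D2:**
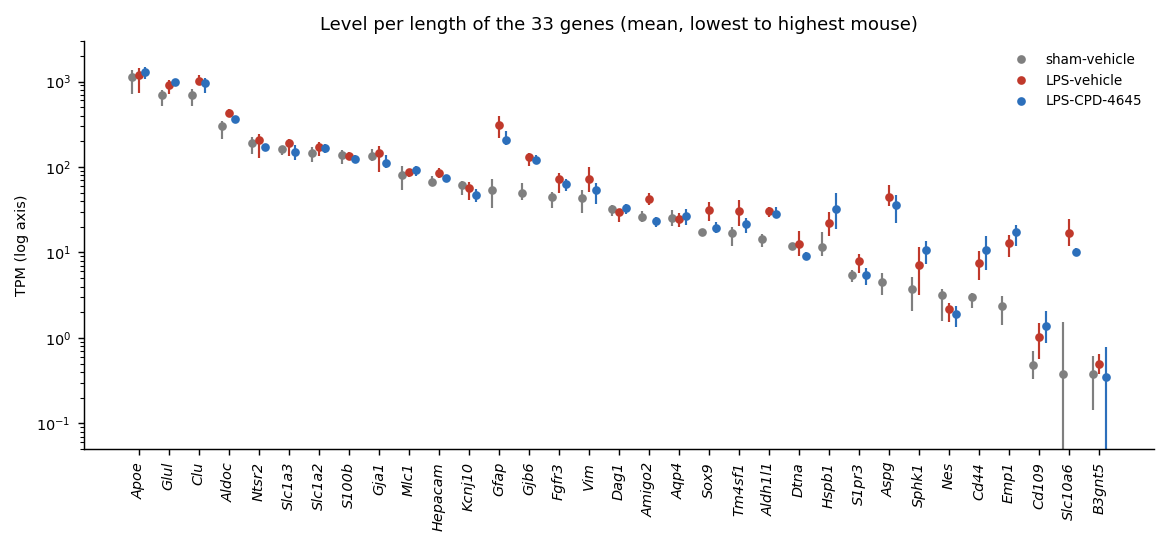
Level per length of the 33 genes (TPM, log axis), ordered by the sham-vehicle mean; points are group means and lines run from the lowest to the highest mouse in sham-vehicle (grey, n = 4), LPS-vehicle (red, n = 5) and LPS-CPD-4645 (blue, n = 4) mice, with values under 0.05 drawn at 0.05. *Gfap*, *Gjb6*, *Aspg*, *Emp1* and *Slc10a6* stand out by red and blue points far above the grey.

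LPS against sham tested what systemic endotoxin does to these genes in the vessel preparation. At the threshold 7 of the 33 genes were higher and 0 lower, against 4.68% of all tested genes higher and 0.995% lower. By adjusted p alone 16 were higher and 0 lower, against 11.1% and 8.86% of all tested genes. Beside the counts of 0, edgeR's unadjusted p was under 0.05 for 2 genes with a negative change, and limma-voom and DESeq2 each placed 1 gene lower by adjusted p alone and 0 at the threshold. The median log2 fold change was 0.80 over the reactive genes, -0.04 over the endfoot and junction genes and 0.25 over the identity and metabolism genes, beside -0.00065 over all tested genes. Without LPS-vehicle mouse 3 that of the endfoot and junction genes was 0.036. Of the 33 genes 25 lay above 0, as did 49.9% of all tested genes.

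*Gfap*, the astrocyte filament, lay at 124, 99.1, 94.8 and 63.3 CPM in the 4 sham-vehicle mice. In the 5 LPS-vehicle mice it lay at 593, 618, 488, 343 and 478 CPM. Every LPS mouse stood well above every sham mouse. The log2 fold change was 2.40 ± 0.19, or 5.29-fold (adjusted p = 6.66e-08). *Vim*, a filament gene that endothelial cells and fibroblasts also use, was at 50.0, 37.1, 45.9 and 30.4 CPM in sham and at 66.8, 63.9, 46.6, 47.6 and 91.2 CPM after LPS. Here the groups overlapped, since LPS-vehicle mice 3 and 4 were under sham-vehicle mouse 1. *Vim* rose by adjusted p alone, with a log2 fold change of 0.63 ± 0.19 (adjusted p = 0.0231). *Nes*, the filament of neural progenitors and of some reactive astrocytes, was the only reactive gene with a negative value, -0.64 ± 0.23, and did not pass (adjusted p = 0.0549). Its sham values were 9.47, 9.49, 9.44 and 4.64 CPM, so that sham-vehicle mouse 4 lay within the LPS range of 3.87 to 6.47 CPM.

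*Slc10a6*, a transporter of sulfated steroids and a gene of the A2 set, showed the highest fold change among the 33. It was at 1.37 CPM in sham-vehicle mouse 1 and at 0 in the other 3 sham mice, against 15.1, 21.5, 15.4, 9.83 and 10.4 CPM after LPS. The groups did not overlap, and a single sham library carried all 48 sham counts. The log2 fold change was 5.11 ± 0.65, or 34.5-fold (adjusted p = 1.65e-05). Without sham-vehicle mouse 1 the sham group was at 0, and the LPS mean was at least 112-fold higher than the floor of 3 counts per library. Among the remaining pan-reactive genes *Aspg*, an asparaginase, lay at 6.67, 5.59, 5.14 and 4.05 CPM in sham and at 62.1, 42.2, 48.9, 45.6 and 39.1 CPM after LPS. Here too the groups were far apart, with a log2 fold change of 3.13 ± 0.20, or 8.77-fold (adjusted p = 1.28e-08). *Cd44*, the hyaluronan receptor, which leukocytes also carry, was at 7.93, 5.15, 7.81 and 9.09 CPM in sham and at 21.9, 17.1, 23.4, 10.6 and 11.1 CPM after LPS. LPS-vehicle mice 4 and 5 came close to the sham mice without overlapping them, and the log2 fold change was 1.15 ± 0.29, or 2.22-fold (adjusted p = 0.00856). The small heat shock gene *Hspb1* rose by adjusted p alone, by 0.80 ± 0.27 on the log2 scale (adjusted p = 0.0487), with overlapping groups. *S1pr3*, a receptor for sphingosine-1-phosphate, did not pass, at 0.44 ± 0.16 (adjusted p = 0.059).

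Among the other 5 A2 genes, *Emp1*, a small membrane protein of the PMP22 family, lay at 3.59, 3.98, 3.03 and 2.07 CPM in sham and at 18.7, 19.0, 11.6, 17.0 and 15.02 CPM after LPS. No LPS mouse came near the sham range, and the log2 fold change was 2.36 ± 0.21, or 5.13-fold (adjusted p = 3.74e-07). *Cd109*, a membrane-anchored protease inhibitor relative, passed the threshold narrowly, at 1.01 ± 0.35 (adjusted p = 0.0488). Its values were 0.884, 1.69, 0.836 and 1.53 CPM in sham and 1.75, 3.16, 1.39, 2.08 and 3.67 CPM after LPS. LPS-vehicle mouse 3 lay inside the sham range, the lowest count behind a value was 11, and the gene lost its place in 11 of 21 alternative fits. *Tm4sf1*, which endothelial cells also express, rose by less than 2-fold, by 0.71 ± 0.18 (adjusted p = 0.00823). *Sphk1*, the kinase that makes sphingosine-1-phosphate, was at 0.80 ± 0.31 and *B3gnt5*, a glycolipid glucosaminyltransferase, at 0.28 ± 0.61, and neither passed (adjusted p = 0.0772 and 0.805). The A1 gene *Amigo2*, a leucine-rich adhesion protein, rose by less than 2-fold with little spread. It was at 41.0, 34.8, 31.6 and 35.5 CPM in sham and at 59.0, 54.3, 47.8, 50.2 and 54.97 CPM after LPS, with no overlap and a log2 fold change of 0.58 ± 0.09 (adjusted p = 0.000226).

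**Figure D3:**
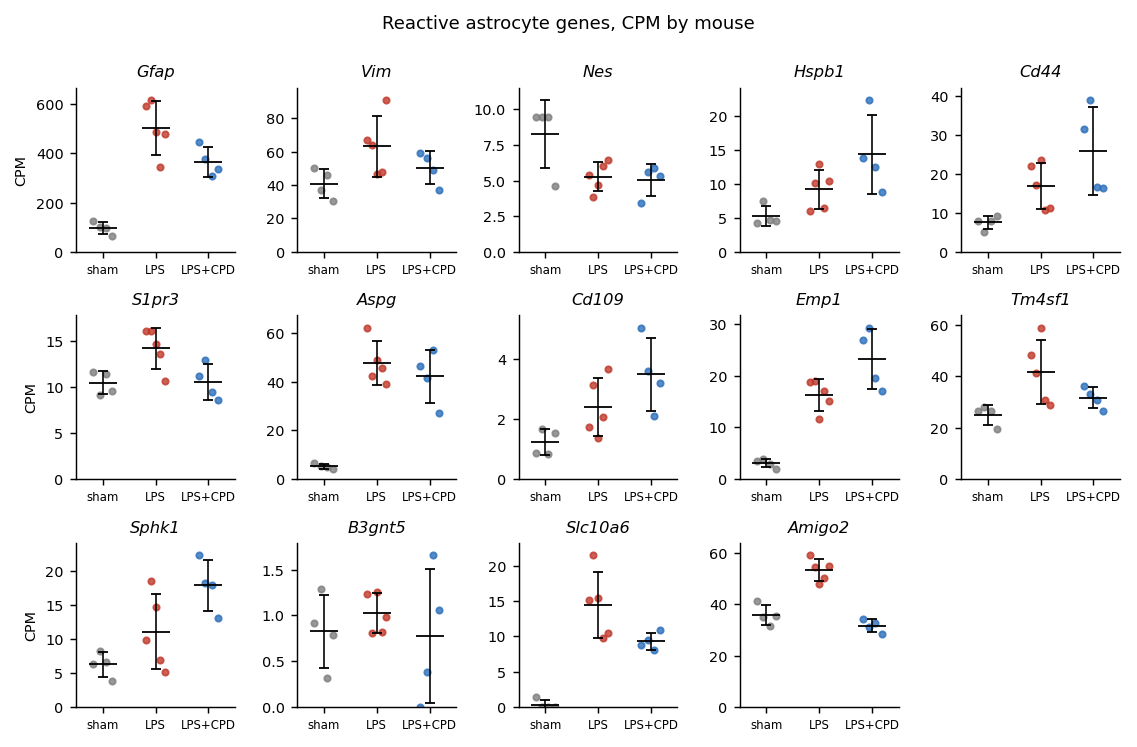
CPM of the 14 reactive genes in each sham-vehicle (grey, n = 4), LPS-vehicle (red, n = 5) and LPS-CPD-4645 (blue, n = 4) mouse; horizontal lines and bars are the mean and SD. *Gfap*, *Aspg*, *Emp1* and *Slc10a6* stay high in both LPS groups, whereas the 4 blue points of *Amigo2*, 28.5 to 34.3 CPM, lie below the 5 red ones, 47.8 to 59.0 CPM.

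*Gjb6* was the exception among the endfoot and junction genes. It lay at 58.3, 37.3, 44.3 and 41.2 CPM in sham and at 109, 114, 90.7, 116 and 123 CPM after LPS, with a clear gap between the groups. The log2 fold change was 1.29 ± 0.12, or 2.44-fold (adjusted p = 4.64e-07). *Gja1*, which encodes the other main astrocyte connexin, connexin 43, was at 233, 175, 191 and 188 CPM in sham and at 203, 210.4, 122, 225 and 209 CPM after LPS. These groups overlapped over most of their range, and the log2 fold change was -0.02 ± 0.14 (adjusted p = 0.95). The ratio of the CPM of *Gjb6* to that of *Gja1*, which was formed after the values had been seen and is given with no test, was 0.214 to 0.250 in sham mice and 0.517 to 0.745 in LPS-vehicle mice.

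The remaining 6 endfoot genes did not pass by adjusted p, and their changes ran from -0.25 to 0.20. The water channel *Aqp4* was at 77.6, 55.4, 67.4 and 57.8 CPM in sham and at 63.7, 64.4, 49.4, 55.7 and 57.3 CPM after LPS, a log2 fold change of -0.15 ± 0.13 (adjusted p = 0.48). The potassium channel *Kcnj10* was at 156, 144, 158 and 119.8 CPM in sham and at 135, 127, 92.6, 116 and 148 CPM after LPS, a log2 fold change of -0.22 ± 0.13 (adjusted p = 0.257). The groups overlapped in both genes. *Dag1*, the dystroglycan that binds laminin of the vessel wall, had the lowest value of the list, -0.25 ± 0.09 (adjusted p = 0.0718). *Mlc1* and *Hepacam*, partner membrane proteins of the astrocyte endfoot, were at 0.04 ± 0.11 and 0.20 ± 0.10, and *Dtna*, the dystrophin-associated dystrobrevin, at -0.05 ± 0.13.

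Of the 11 identity and metabolism genes 5 rose by adjusted p alone and none reached 2-fold in the fit of all mice, beside 11.1% and 4.68% of all tested genes. *Aldh1l1*, the folate enzyme used as a general astrocyte marker, came closest, and passed the 2-fold limit without sham-vehicle mouse 2 (1.02) or LPS-vehicle mouse 4 (1.05). It was at 26.3, 28.3, 26.7 and 22.9 CPM in sham and at 51.7, 56.0, 49.8, 41.3 and 58.1 CPM after LPS, without overlap, and the log2 fold change was 0.98 ± 0.11, or 1.97-fold (adjusted p = 4.58e-06). *Sox9*, a transcription factor of the astrocyte lineage, was at 30.7, 28.4, 31.3 and 36.3 CPM in sham and at 59.96, 53.6, 52.0, 50.4 and 39.8 CPM after LPS. Its groups did not overlap either, although LPS-vehicle mouse 5 came near sham-vehicle mouse 4, and the log2 fold change was 0.69 ± 0.12 (adjusted p = 0.000578). The growth factor receptor *Fgfr3*, *Clu* and *Aldoc* rose by 0.60 ± 0.13, 0.44 ± 0.12 and 0.42 ± 0.11 (adjusted p = 0.00227, 0.0153 and 0.00954). The other 6 did not pass, with changes from -0.16 for the calcium-binding protein *S100b* to 0.25 for *Glul*. Both glutamate transporters were among them, *Slc1a2* at 0.10 ± 0.11 and *Slc1a3* at 0.12 ± 0.12 (adjusted p = 0.59 and 0.534).

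**Figure D4:**
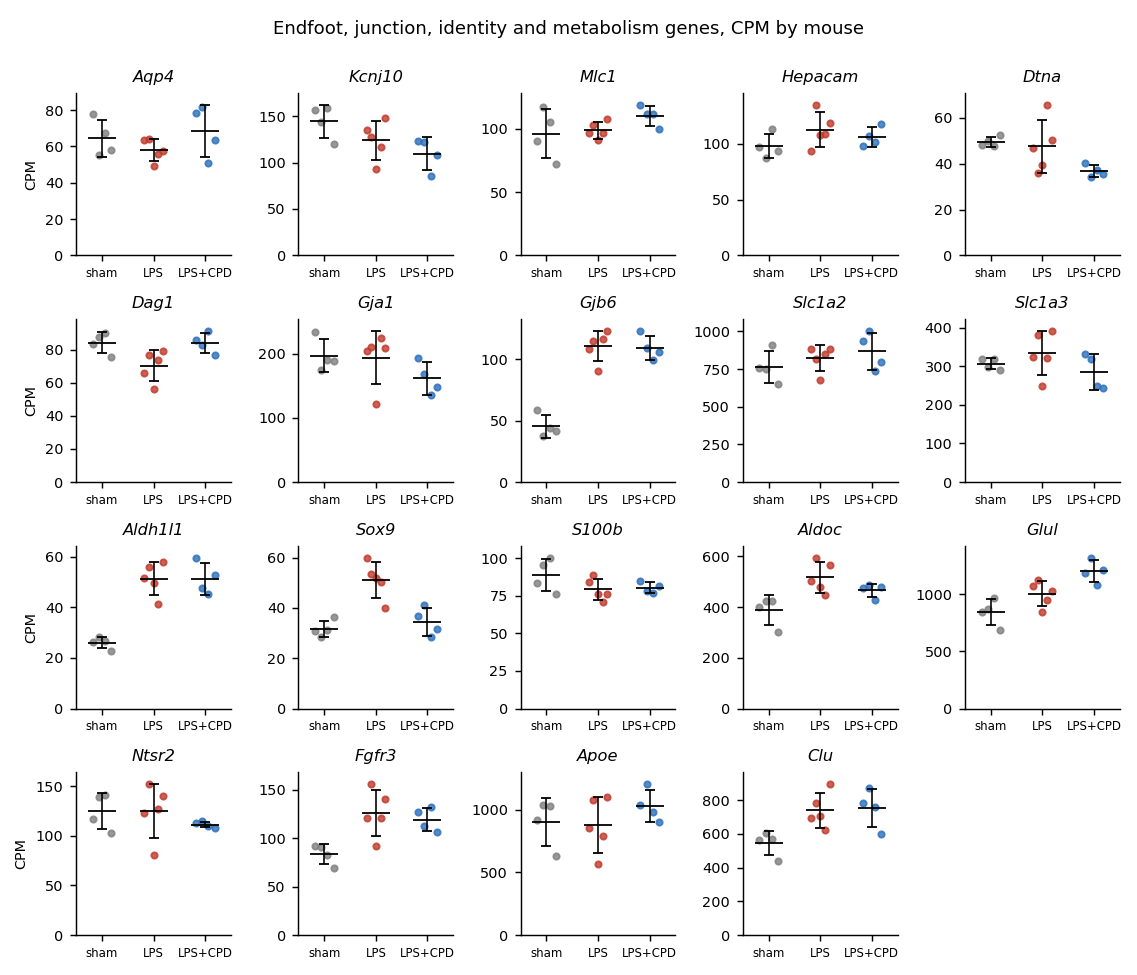
CPM of the 8 endfoot and junction genes and the 11 identity and metabolism genes in each sham-vehicle (grey, n = 4), LPS-vehicle (red, n = 5) and LPS-CPD-4645 (blue, n = 4) mouse; horizontal lines and bars are the mean and SD. *Gjb6* and *Aldh1l1* have both LPS groups above sham, and *Sox9* has all 5 LPS-vehicle mice above the sham mice while the LPS-CPD-4645 mice overlap them.

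*Slc10a6* is at chr5:103605711-103629403 on the minus strand, *Aspg* at chr12:112106679-112127559 on the plus strand, *Gfap* at chr11:102887336-102900912 on the minus strand and *Gjb6* at chr14:57123303-57133611 on the minus strand, all protein coding in GENCODE M21. Their RefSeq promoters (GRCm38.p6) are printed to show what the 3 reactive genes with the largest rise and the connexin share in sequence. Each line runs 5′ to 3′ on the gene's strand over 250 bases before the start site and 10 after it, with matches to a searched motif in capitals. The windows are chr5:103629394-103629653, chr12:112106433-112106692, chr11:102897191-102897450 and chr14:57133602-57133861.
Slc10a6: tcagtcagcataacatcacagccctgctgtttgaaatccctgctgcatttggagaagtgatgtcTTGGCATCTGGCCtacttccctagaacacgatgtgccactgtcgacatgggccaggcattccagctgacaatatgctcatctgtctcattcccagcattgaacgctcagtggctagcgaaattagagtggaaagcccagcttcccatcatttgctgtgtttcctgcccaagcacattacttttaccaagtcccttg
Aspg: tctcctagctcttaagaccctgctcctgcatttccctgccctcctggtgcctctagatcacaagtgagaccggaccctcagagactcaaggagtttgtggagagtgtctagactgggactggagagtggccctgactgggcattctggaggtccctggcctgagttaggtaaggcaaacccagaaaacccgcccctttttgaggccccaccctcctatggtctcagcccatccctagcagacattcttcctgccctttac
Gfap: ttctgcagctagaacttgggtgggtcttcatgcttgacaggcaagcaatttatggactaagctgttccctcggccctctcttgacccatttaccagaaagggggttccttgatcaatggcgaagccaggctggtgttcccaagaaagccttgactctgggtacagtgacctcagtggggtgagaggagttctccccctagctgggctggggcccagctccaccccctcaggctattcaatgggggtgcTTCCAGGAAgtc
Gjb6: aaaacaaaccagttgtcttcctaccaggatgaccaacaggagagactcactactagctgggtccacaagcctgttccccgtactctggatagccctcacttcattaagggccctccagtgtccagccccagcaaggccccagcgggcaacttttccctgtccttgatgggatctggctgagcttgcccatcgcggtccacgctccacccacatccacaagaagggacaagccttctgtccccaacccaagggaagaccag
The capitals mark an NFI match (TTGGC and GCC with 5 bases between them) in *Slc10a6* and a STAT match (TTCNNNGAA) in *Gfap*. The STAT match of *Gfap* begins 2 bases before the start site and runs across it. *Aspg* and *Gjb6* held none of the 4 motifs in these windows. Promoters of 28 of the 33 genes were in the RefSeq table, as 38 windows of 300 bases, and those of *Aqp4*, *Cd109*, *Clu*, *Dtna* and *Sox9* were not among them. On either strand, STAT was found in 7 of the 38 windows, belonging to *Aldoc*, *Emp1*, *Gfap*, *Ntsr2*, *Slc1a3* and *Sphk1*, against 8.3% of 32851 promoters. AP-1 (TGANTCA) was found in 4 windows, of *Emp1*, *Gja1* and *Sphk1*, against 7.81%, and overlapped a STAT match in *Emp1*. Both tallies count *Sphk1* by 2 overlapping windows that hold the same STAT and the same AP-1 match, so that the shares over windows are not shares of separate sites. NFI was found in 1, against 1.38%, and the NF-kB core GGANTTTCC in 0, against 1.25%. These are matches of letters, and no binding was measured.

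CPD-4645 with LPS against LPS alone asked whether the inhibitor alters the response. At the threshold 0 of the 33 genes were higher and 0 lower, against 1.7% of all tested genes higher and 4.19% lower. By adjusted p alone 0 were higher and 4 lower, against 14.1% and 16.4%. With 1 mouse left out the lower genes numbered 2 to 6. In the edgeR fit of all mice 6 genes had an unadjusted p under 0.05 upward and 6 downward. By adjusted p alone limma-voom placed 2 genes higher and DESeq2 4, and neither tool placed any at the threshold. The medians were -0.25 over the reactive genes, -0.05 over the endfoot and junction genes and -0.0052 over the identity and metabolism genes, beside -0.02 over all tested genes. The reactive median was -0.14 without LPS-vehicle mouse 1, -0.084 without LPS-CPD-4645 mouse 1, -0.14 without mouse 2 and -0.13 without mouse 4 of that group, and the identity median turned positive in several alternatives.

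*Amigo2* fell most clearly. It was at 34.3, 31.2, 32.5 and 28.5 CPM in the 4 LPS-CPD-4645 mice, each of them below all 5 LPS-vehicle mice. The log2 fold change was -0.76 ± 0.09 (adjusted p = 2.52e-05), and these mice overlapped the sham mice, at -0.18 ± 0.10 against sham (adjusted p = 0.159). *Sox9* was at 36.9, 41.2, 28.5 and 31.5 CPM and overlapped the LPS-vehicle mice only through LPS-CPD-4645 mouse 2, which lay above LPS-vehicle mouse 5. It fell by 0.57 on the log2 scale (SE 0.12, adjusted p = 0.00234) and stood at 0.12 ± 0.13 against sham (adjusted p = 0.477). *S1pr3* and *Dtna* also passed by adjusted p, at -0.43 ± 0.16 and -0.38 ± 0.13 (adjusted p = 0.0492 and 0.0375), with overlapping groups in both genes. *Dtna* was at 46.9, 36.0, 39.2, 65.6 and 50.2 CPM in the LPS-vehicle mice, against 34.1 to 40.1 CPM under CPD-4645. *Gfap* lay at 446, 375, 306 and 335 CPM, within and below the LPS-vehicle range, and did not pass, at -0.46 ± 0.17 (adjusted p = 0.0514). *Gjb6* was at 122.7, 109, 99.5 and 106 CPM, with LPS-CPD-4645 mouse 1 marginally above the highest LPS-vehicle mouse, 122.6 CPM, and the others inside the LPS-vehicle range, at a log2 fold change of -0.02 ± 0.11 (adjusted p = 0.90). Its ratio to *Gja1* was 0.633 to 0.737 in these mice. *Aspg*, at 46.5, 41.7, 52.9 and 27.4 CPM, also overlapped the LPS-vehicle mice, at -0.18 ± 0.17 (adjusted p = 0.457).

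Several reactive genes had positive values against LPS alone without passing. *Sphk1* was at 22.3, 18.2, 17.9 and 13.1 CPM, in and above the LPS-vehicle range of 5.13 to 18.5 CPM (log2 fold change 0.70 ± 0.30, adjusted p = 0.0799). *Hspb1* was at 0.67 ± 0.26, *Cd44* at 0.64 ± 0.27, *Emp1* at 0.49 ± 0.19 and *Cd109* at 0.49 ± 0.33 (adjusted p = 0.0635, 0.0875, 0.0562 and 0.282). The highest *Cd44* values were those of LPS-CPD-4645 mice 1 and 2, 31.5 and 38.9 CPM, against 16.6 and 16.3 CPM in the other two. In LPS-CPD-4645 mice 1 to 4 the summed neutrophil markers were at 22.7, 10.9, 7.30 and 26.6 CPM. The sums of 4 fibroblast markers were 74.6, 88.2, 51.0 and 52.0 CPM. The part of these cells in the *Cd44* values was not tested. *B3gnt5*, with 0 to 45 counts in a library, was too low for its values of 0, 0.385, 1.66 and 1.06 CPM to be told from the 0.807 to 1.26 CPM of LPS alone.

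Against sham, the mice given LPS and CPD-4645 differed by LPS and the inhibitor together. No group received CPD-4645 alone, so their effects cannot be told apart here. Both comparisons with sham rest on the same 4 sham mice. At the threshold 9 of the 33 genes were higher and 0 lower, against 6.11% and 4.98% of all tested genes, and limma-voom and DESeq2 also gave 0 lower. By adjusted p alone 13 were higher and 3 lower, against 19.5% and 19.3%. The lower count ran from 0 to 4 over fits with 1 mouse left out. The 9 were the 7 genes that passed after LPS alone together with *Sphk1* and *Hspb1*. *Slc10a6* was at 8.78, 9.51, 8.09 and 10.9 CPM, a log2 fold change of 4.48 ± 0.66 against sham (adjusted p = 3.85e-05), and without sham-vehicle mouse 1 its mean was at least 72.1-fold above the floor. *Aspg*, *Emp1* and *Gfap* were higher by 2.96 ± 0.20, 2.85 ± 0.22 and 1.94 ± 0.19 (adjusted p = 1.48e-08, 5.16e-08 and 6.00e-07). *Cd44* and *Cd109* were higher by 1.78 ± 0.30 and 1.49 ± 0.37 (adjusted p = 0.00016 and 0.00346), and *Gjb6* by 1.26 ± 0.12 (adjusted p = 6.07e-07). None of these groups overlapped the sham mice. The genes were picked by the threshold on these same values, and the share of all tested genes without overlap was not computed. *Sphk1* and *Hspb1* were higher by 1.50 ± 0.32 and 1.46 ± 0.29 (adjusted p = 0.0013 and 0.000614), and *Hspb1* lay at 13.8, 22.4, 12.5 and 8.75 CPM against 4.25, 7.40, 4.70 and 4.49 CPM in sham, without overlap.

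Of the genes that function at the endfoot, *Kcnj10* and *Dtna* were lower than in sham by adjusted p alone. *Kcnj10* was at 123, 122, 85.6 and 108 CPM, a log2 fold change of -0.40 ± 0.14 (adjusted p = 0.0257), with LPS-CPD-4645 mice 1 and 2 just above sham-vehicle mouse 4. *Dtna* was at 40.1, 34.1, 37.4 and 35.4 CPM against 48.1, 50.0, 47.6 and 52.4 CPM in sham, without overlap, at -0.43 ± 0.14 (adjusted p = 0.020). *Nes* was the third, at -0.70 ± 0.24 (adjusted p = 0.0299), and again overlapped only sham-vehicle mouse 4. *Aqp4* stood at 0.08 ± 0.14 and *Gja1* at -0.29 ± 0.15, neither passing. *Aldh1l1* was at 59.6, 47.7, 45.1 and 53.0 CPM, above all sham mice, at 0.98 ± 0.12 (adjusted p = 4.38e-06), and passed 2-fold without sham-vehicle mouse 2 (1.03), LPS-CPD-4645 mouse 2 (1.01) or mouse 3 of that group (1.04). *Glul*, which had not passed after LPS alone, was higher by 0.51 ± 0.11 (adjusted p = 0.00129), and *Fgfr3* and *Clu* by 0.51 ± 0.13 and 0.46 ± 0.13 (adjusted p = 0.0051 and 0.0077).

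**Figure D5:**
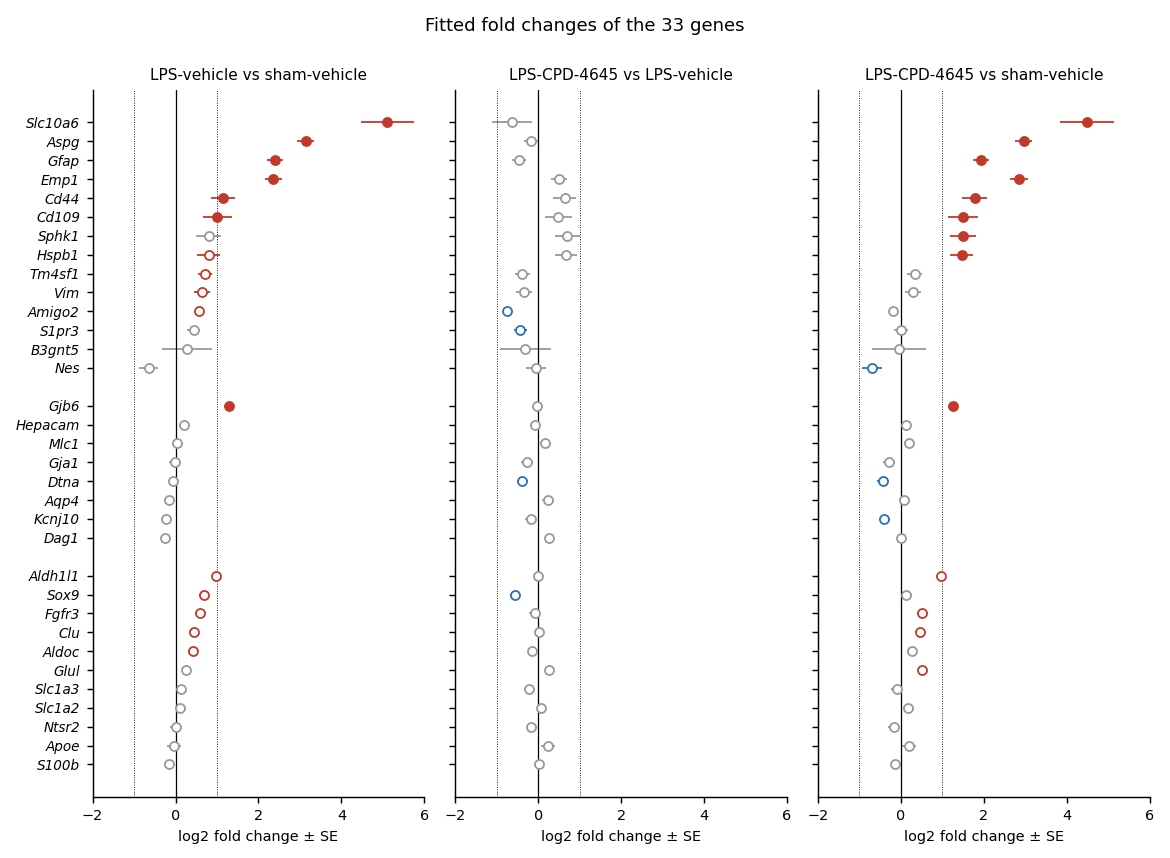
Fitted log2 fold changes ± SE of the 33 genes in the 3 comparisons, grouped as reactive (top), endfoot and junction (middle), and identity and metabolism (bottom). Filled points passed the adjusted p and the 2-fold limit (dotted lines), open red and blue points passed the adjusted p alone upward and downward, and grey points did not pass; the middle panel has 4 blue and no filled points.

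Other astrocyte gene lists, drawn up beside the 33, give the surroundings. All 7 other pan-reactive genes passed upward after LPS, where 4.68% of all tested genes did, with a median of 3.21, led by *Lcn2*, the siderophore-binding lipocalin, at 4.87 ± 0.49, and *Timp1*, a metalloproteinase inhibitor, at 4.57 ± 0.39. Under CPD-4645 only *Cxcl10*, an interferon-induced chemokine, passed against LPS alone, upward at 2.64 ± 0.67 (adjusted p = 0.0066), with overlapping groups, beside 1.7% of all tested genes. Of 11 other A1 genes 10 were tested and 9 passed upward after LPS, beside the same 4.68%, with a median of 1.93. *Iigp1* and *Gbp2*, both interferon-inducible GTPases, led them at 3.36 ± 0.49 and 2.68 ± 0.34, and against LPS alone 0 of the 10 passed the threshold, beside 1.7% of all tested genes higher and 4.19% lower. Of these, 2 were higher there by adjusted p alone, among them *Gbp2* at 0.87 ± 0.30, and 2 lower, among them *Fbln5*, an extracellular matrix protein, at -0.82 ± 0.25 (adjusted p = 0.0352 and 0.0193), beside 14.1% and 16.4% of all tested genes. Of 6 other A2 genes 4 passed upward after LPS, again beside 4.68%, led by *Cd14*, the LPS co-receptor of myeloid cells, at 4.71 ± 0.32, and *Tgm1*, a transglutaminase, at 4.66 ± 0.76. *Cd14* was the 1 gene of the 6 that passed downward under CPD-4645 against LPS alone, at -1.15 ± 0.26, beside 4.19% of all tested genes. Many genes of these lists are also expressed by leukocytes and endothelial cells.

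Other genes that mark resting astrocytes moved in both directions. Of 16 other astrocyte genes only *Agt*, angiotensinogen, passed upward after LPS, at 1.15 ± 0.17, and 0 passed downward, beside 4.68% and 0.995% of all tested genes. Counted by adjusted p alone 3 were higher and 3 lower, beside 11.1% and 8.86% of all tested genes, and the median was -0.10. In the LPS-CPD-4645 mice 2 were higher and 6 lower than in sham by adjusted p alone, beside 19.5% and 19.3%. The lowest value after LPS alone was that of *Mfge8*, a secreted phagocytosis adaptor chosen here after its values were seen, at -0.96 ± 0.12. It lay at 145 to 225 CPM in sham mice and at 74.99 to 116 CPM after LPS. Of 6 other endfoot and dystrophin complex genes only *Slc14a1*, a urea transporter, passed upward after LPS, at 1.05 ± 0.18, beside 4.68%. There 2 were higher and 2 lower by adjusted p alone, beside 11.1% and 8.86% of all tested genes, the lower ones being the dystrophin gene *Dmd* at -0.46 ± 0.12 and its relative *Utrn*, utrophin, at -0.39 ± 0.13 (adjusted p = 0.0128 and 0.0355). The lowest value was -1.51 ± 0.75 for the syntrophin *Sntb1*, which averaged 0.521 CPM in sham mice and 0.157 CPM after LPS and did not pass (adjusted p = 0.175). *Fbln5*, *Dmd*, *Utrn* and *Sntb1* were named after their values were seen. *Ezr*, the membrane linker ezrin, was higher than in sham by 0.82 ± 0.11 after LPS, by adjusted p alone (3.70e-05), and by 1.57 ± 0.12 in the LPS-CPD-4645 mice (adjusted p = 4.11e-08), the 1 gene of the 6 past the threshold there, beside 6.11% of all tested genes.

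Exons of *Amigo2*, *Sphk1*, *Slc1a2*, *Aldh1l1*, *Glul*, *Fgfr3*, *S1pr3* and *Dtna* overlap those of another annotated gene, mostly on the opposite strand (*Pced1b* for *Amigo2*, *Gm29292* for *Sphk1*, *Gm15756* for *Aldh1l1*). Which strand column was counted is not given in the sources used here, so reads of such pairs may have been shared.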

How the data were processed

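Neurovascular RNA of 13 mice was measured, 1 library each. The authors demultiplexed reads with bcl2fastq 2.15.0.4, aligned them to GRCm38 with STAR 2.5.2a and deposited whole-number read counts per gene, with no normalization. The strand setting of the counting is not given in the sources used here. In edgeR 4.0.16 (R 4.3.3), filterByExpr (minimum count 10, minimum total 15) kept 17285 of 27934 genes with counts, TMM factors ran from 0.908 to 1.08, and a quasi-likelihood fit without covariates held all 3 groups, so that the comparisons share an estimate of the spread. Replicates are labelled as separate samples. In 22 replicate pairs the chi-square per gene was 9.82 to 61.1, so none agreed within sampling noise.

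CPM used the TMM-scaled totals. TPM used the union of exons of GENCODE M21 (GRCm38), matched by 47224 of 47643 identifiers. Alternatives were limma-voom (limma 3.58.1, the study's method), DESeq2 1.42.0, its size factors in edgeR, no filter, a mean count of at least 50, only the groups compared, a replicate block, 1 mouse left out, and the shallowest 2 libraries left out. The script was tested on simulated data. A fold against a group at 0 used a floor of 3 counts per library. Counts of a library carry counting error, which limits genes near that floor. The genes, lists and tests were chosen with earlier results of these data known. All 33 genes are named, and of each other list the largest 2 rises and 2 falls past the threshold, with *Mfge8*, *Fbln5*, *Dmd*, *Utrn* and *Sntb1* added after their values were seen.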

Additional observations from a re-analysis of the deposited data

Results flagged for a closer look

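Over 99 sets of a gene and a group, the highest or lowest mouse stood apart from the rest of its group in 5, by Dixon's ratio at the 95% level, which chance passes in about 1 set of 20. *Nes* was at 4.64 CPM in sham-vehicle mouse 4, the lowest of its group. *Tm4sf1* was also lowest in that mouse, at 19.4 CPM. *Hspb1* was highest in sham-vehicle mouse 2, at 7.40 CPM. *Slc10a6* was highest in sham-vehicle mouse 1, at 1.37 CPM, the other 3 sham mice being at 0. *Gja1* was lowest in LPS-vehicle mouse 3, at 122 CPM, in the library with the fewest counts.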

How the results depend on the processing

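Counts of genes past the threshold kept their direction in all 21 alternatives after LPS and for CPD-4645 against sham. Under CPD-4645 against LPS alone the count of 0 higher genes became 1 in a fit without 1 mouse (range 0 to 1 over the 13 such fits: *Sphk1* without LPS-vehicle mouse 2, 1.01). *Cd109* after LPS lost its place in 11 alternatives, among them the fit without a filter (1.01), that of only 2 groups (1.01) and the replicate block (0.76). *Hspb1* after LPS reached 2-fold without sham-vehicle mouse 2 (1.01), and *Aldh1l1* in 2 fits without 1 mouse after LPS (0.92 to 1.05 over the 13) and 3 under CPD-4645 against sham (0.91 to 1.04).

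By adjusted p alone, genes lower after LPS numbered 1 with limma-voom and DESeq2 and 0 to 2 with a mouse left out. Genes higher under CPD-4645 against LPS alone numbered 2 with limma-voom, 4 with DESeq2, 1 with its size factors, 4 without a filter, 1 with only 2 groups, 4 with the replicate block, 1 without the shallowest 2 libraries and 0 to 4 with a mouse left out. Genes lower in that comparison numbered 2 to 6, and lower against sham 0 to 4, with a mouse left out. The replicate numbers name separate mice. Deviations of same-numbered mice correlated at -0.035 to 0.114 (median 0.027, 12 pairs). Those of other-numbered mice correlated at -0.137 to 0.124 (median -0.013, 44 pairs). Whether same-numbered mice were handled together is not given in the sources used here. The replicate block gave 6 genes higher after LPS and 9 under CPD-4645 against sham. With 3 or fewer counts in a library *B3gnt5* and sham *Slc10a6* are limited by depth.

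Some medians near 0 turned. After LPS that of the endfoot and junction genes was 0.036 without the shallowest 2 libraries (-0.10 to 0.036 with a mouse left out), and against sham -0.0047 to 0.079. Under CPD-4645 against LPS alone the reactive median stayed negative but shrank, to -0.084 without those libraries (-0.31 to -0.084 with a mouse left out), and the identity median turned, to 0.0036 with DESeq2, 0.0038 with its size factors, 0.0064 with 2 groups and 0.0093 with the block (-0.077 to 0.030). The cause was not tested.

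Among genes that did not pass, these changed sign. After LPS they were *Gja1* (0.11 without the shallowest 2 libraries, -0.076 to 0.11 with a mouse left out), *Ntsr2* (-0.052 with the block, -0.078 to 0.12), *Mlc1* (-0.075 to 0.15), *Apoe* (0.083, -0.18 to 0.083) and *Dtna* (0.0039, -0.20 to 0.038), the unnamed setting again being the shallowest 2 libraries left out. Against LPS alone they were *Nes* (0.025 with limma-voom, 0.012 with the block, 0.048 without those libraries, -0.16 to 0.089), *B3gnt5* (0.11, -0.94 to 0.049), *Gjb6* (0.015 with the block, -0.083 to 0.028), *Slc1a2* (-0.023), *Aldh1l1* (0.0036 with DESeq2, 0.0038 with its size factors, 0.0064 with 2 groups, 0.052 with the block, -0.077 to 0.061), *S100b* (-0.018, -0.021 to 0.065) and *Clu* (-0.01, -0.054 to 0.13). Against sham they were *S1pr3* (-0.018 with limma-voom, -0.015 without those libraries, -0.11 to 0.11), *B3gnt5* (0.31, -0.67 to 0.33), *Aqp4* (-0.015 to 0.21) and *Dag1* (0.0089 with DESeq2, 0.009 with its size factors, 0.0018 with 2 groups, 0.0005 with the block, -0.038 to 0.055).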
